A study of Rattus norvegicus with 8 samples.

Results

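GABA-A receptor subunit transcripts were followed in rat hippocampus during simulated high altitude. The set comprised Gabra2, Gabra3, Gabra4, Gabra5, Gabrb1, Gabrb2 and Gabrd, taken as every non-control probe that carries one of those gene names on the array. It held 7 probes of 7 genes, of 26243 genes and 30367 probes in all, and every probe was printed as 2 spots. All 7 probes passed the filter on dim signal, which kept a probe if some group had both its arrays well above background. Male Sprague Dawley rats were kept in a decompression chamber at the equivalent of 25000 ft, stated as an effective 8% oxygen, or in normoxia. Total RNA of the hippocampal region was labelled with Cy3 and hybridised to Agilent rat expression arrays, 1 array per sample and 2 arrays in each of the 4 groups: normoxia, day 1, day 3 and day 7. The arrays titled day 7 are given an exposure of 5 days in another label, so their duration is not settled. The labels give neither the age of the rats nor whether arrays of a group hold RNA of different animals, so p-values measure only how far these arrays differed, possibly for technical reasons.

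GABA-A receptors are chloride channels opened by GABA, the main inhibitory transmitter of the adult brain. A receptor is a ring of subunits, commonly alpha and beta subunits joined by a gamma or a delta subunit, and the subunits present set where in the neuron it sits and how sensitive it is to GABA. In the hippocampus, receptors with alpha 4 and delta lie outside the synapse, above all on dentate granule cells, and carry a persistent (tonic) current. Alpha 5 receptors are abundant on CA1 and CA3 pyramidal cells and are also largely extrasynaptic, whereas alpha 2 receptors lie at synapses, including those on the axon initial segment.

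The probes are shown because the account of each gene rests on a single 60-base sequence. Positions are those of the array's annotation on rat genome build rn4. The Gabra2 probe (chr14:39661796-39662852, plus strand) and the Gabra3 probe (chrX:158416663-158422492, minus strand) cover related stretches of their transcripts, and each interval is longer than the probe. In an ungapped overlap of 54 bases, 21 bases differed between those probes, and these are in capitals below. The other probes shown have no capitals and are those of Gabra4 (chr14:39122375-39122434, plus strand), Gabra5 (chr1:108844189-108844248, minus strand) and Gabrb2 (chr10:27819086-27819145, plus strand).
Gabra2: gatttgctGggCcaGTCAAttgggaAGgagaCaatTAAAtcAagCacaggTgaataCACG
Gabra3: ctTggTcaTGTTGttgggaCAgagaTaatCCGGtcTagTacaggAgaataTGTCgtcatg
Gabra4: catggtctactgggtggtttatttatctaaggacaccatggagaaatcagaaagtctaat
Gabra5: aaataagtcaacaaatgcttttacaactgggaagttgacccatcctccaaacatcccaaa
Gabrb2: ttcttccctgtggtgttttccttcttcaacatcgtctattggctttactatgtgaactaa

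The Gabrb1 probe lies at chr14:38530433-38530492 and the Gabrd probe at chr5:172203200-172203260, both on the minus strand. Gabrb1, Gabra4 and Gabra2 are therefore neighbours on chromosome 14, whereas Gabra3, Gabra5, Gabrb2 and Gabrd lie on 4 further chromosomes. Across all pairings of these 7 probes with the other GABA-A subunit probes on the array, the closest ungapped match was that of Gabrb2 with Gabrq, at 63.8% of 47 bases.

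Levels are log2 signal minus the array's own 75th percentile, so that 0 is a fairly bright probe, and a level of one probe cannot be set against that of another. The 75th percentile itself was 2684 and 2321 signal units on the normoxia arrays, 2214 and 2247 at day 1, 1710 and 1566 at day 3, and 1407 and 1393 at day 7. The 75th percentile thus fell with exposure, and changes below are relative to it. In log2 units it was 11.39 and 11.18 in normoxia and 10.46 and 10.44 at day 7. One spike-in control probe (E1A a97) did not follow the same order. Its log2 signal was 13.42 and 13.18 in normoxia and 12.72 and 12.73 at day 1. At day 3 it was 12.97 and 12.78, and at day 7 13.11 and 13.04. The part of this difference in the changes below was not tested. Markers of the tissue also moved: on day 1 all 15 striatal markers tested rose, with mean levels of 0.82 and 0.71 on the day 1 arrays against -1.92 and -1.86 on the normoxia arrays, and all 15 were above background on day 1 and 14 in normoxia. The mean level of 12 choroid plexus markers was -4.77 and -4.81 on day 1 and -4.21 and -4.27 on day 7, against -1.01 and -0.93 in normoxia, and all 12 fell in both comparisons. The mean level of 9 pan-neuronal markers moved less, from 3.06 to 3.21 over the 8 arrays. That of 13 hippocampal principal cell markers lay between -0.82 and -0.35. Both means cover markers that moved in opposite directions. Against normoxia, pan-neuronal rises numbered 1, 1 and 4 for days 1, 3 and 7, while falls numbered 3, 4 and 4. Principal cell markers showed 2, 9 and 5 rises, beside 6, 1 and 6 falls. Of 12 thalamic markers, 2 rose and 8 fell on day 1. None rose on days 3 and 7, when 11 and 9 of them fell. Of all probes, 15.1%, 22.7% and 29.6% rose and 19.2%, 27.2% and 31.4% fell on days 1, 3 and 7. The part of these differences in the subunit changes was not tested.

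Gabrd, which encodes the delta subunit of extrasynaptic receptors, was highest on day 1 and lowest on day 7. Its level was 1.45 and 1.47 on the normoxia arrays, 1.88 and 1.84 at day 1, 1.52 and 1.44 at day 3, and 1.21 and 1.16 at day 7. Both day 1 arrays lay above, and both day 7 arrays below, every other array. Gabrd rose on day 1 by 0.40 ± 0.05 log2 (SE, n = 2 arrays per group), or 1.32-fold, with an adjusted p of 0.00308 in the limma fit over all probes. On day 3 it differed from normoxia by 0.02 (adjusted p = 0.711), and on day 7 it was lower than in normoxia by 1.21-fold, a change of -0.27 ± 0.05 log2 (adjusted p = 0.00436). The falls between consecutive times also passed the test, with -0.38 for day 3 against day 1 (adjusted p = 0.00198) and -0.30 for day 7 against day 3 (adjusted p = 0.00635). The size of the day 7 change against normoxia depended on the scaling. With arrays centred on their medians it was 0.02. It was -0.39 after quantile normalization, -0.41 after cyclic loess and -0.37 with normexp background correction. The median change of all probes in the same decile of mean level was 0.25 on day 7. In whole tissue, fewer cells that express a gene and less of its RNA per cell cannot be told apart.

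Gabra4, which encodes the alpha 4 partner of delta in extrasynaptic receptors, had the same order of days 1, 3 and 7, with smaller changes between them. It measured -1.19 and -1.17 for normoxia, -1.01 and -1.03 at day 1, -1.29 and -1.23 at day 3, and -1.37 and -1.42 at day 7. The groups did not overlap. The day 1 rise of 0.16 ± 0.04 log2 (adjusted p = 0.0359) lost its call when any one of the 2 normoxia or 2 day 1 arrays was left out, with values of 0.15 to 0.17. On day 7 Gabra4 fell by 0.22 ± 0.04 log2 against normoxia (adjusted p = 0.00715). The day 7 change was 0.08 with median centring and -0.08 after quantile normalization, neither of them called. Day 3 was lower than day 1 by 1.18-fold (-0.24 log2, adjusted p = 0.00617), and by 0.12 log2, not called, with median centring.

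Gabrb1, which encodes the beta 1 subunit, moved the opposite way. It measured 2.09 and 2.10 for normoxia, 1.73 and 1.80 at day 1, 2.13 and 2.12 at day 3, and 2.53 and 2.68 at day 7. Day 1 arrays were the lowest and day 7 arrays the highest of the 8. Gabrb1 fell on day 1 by 0.33 ± 0.06 log2 (adjusted p = 0.0130), and this call was lost, at -0.33, -0.32 and -0.29, without normoxia replicate 1, normoxia replicate 2 or day 1 replicate 1. It rose on day 7 by 0.52 ± 0.06 log2, or 1.43-fold (adjusted p = 0.00114), while the median of probes of like level rose by 0.25. Day 3 was above day 1 by 0.36 (adjusted p = 0.00596), and day 7 above day 3 by 0.48 (adjusted p = 0.00338).

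Gabra2, which encodes the alpha 2 subunit of synaptic receptors, followed a similar course at smaller size on day 7. Its level was -1.69 and -1.70 for normoxia, -2.04 and -2.00 at day 1, -1.55 and -1.58 at day 3, and -1.39 and -1.54 at day 7. The day 1 arrays were the lowest of the 8, and day 7 replicate 2 lay close to the day 3 arrays. It fell on day 1 by 0.32 ± 0.06 log2, or 1.25-fold (adjusted p = 0.0119). Leaving out any one of the normoxia or day 1 arrays took the call away, with changes of -0.34 to -0.30. On day 7 Gabra2 rose by 0.23 ± 0.06 log2 (adjusted p = 0.0192), which was no longer called without normoxia replicate 1 (0.23) or normoxia replicate 2 (0.23). For day 3 against day 1 it rose by 0.45 ± 0.06 log2 (adjusted p = 0.00233), and that difference was 0.0064, not called, without scaling.

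**Figure D1:**
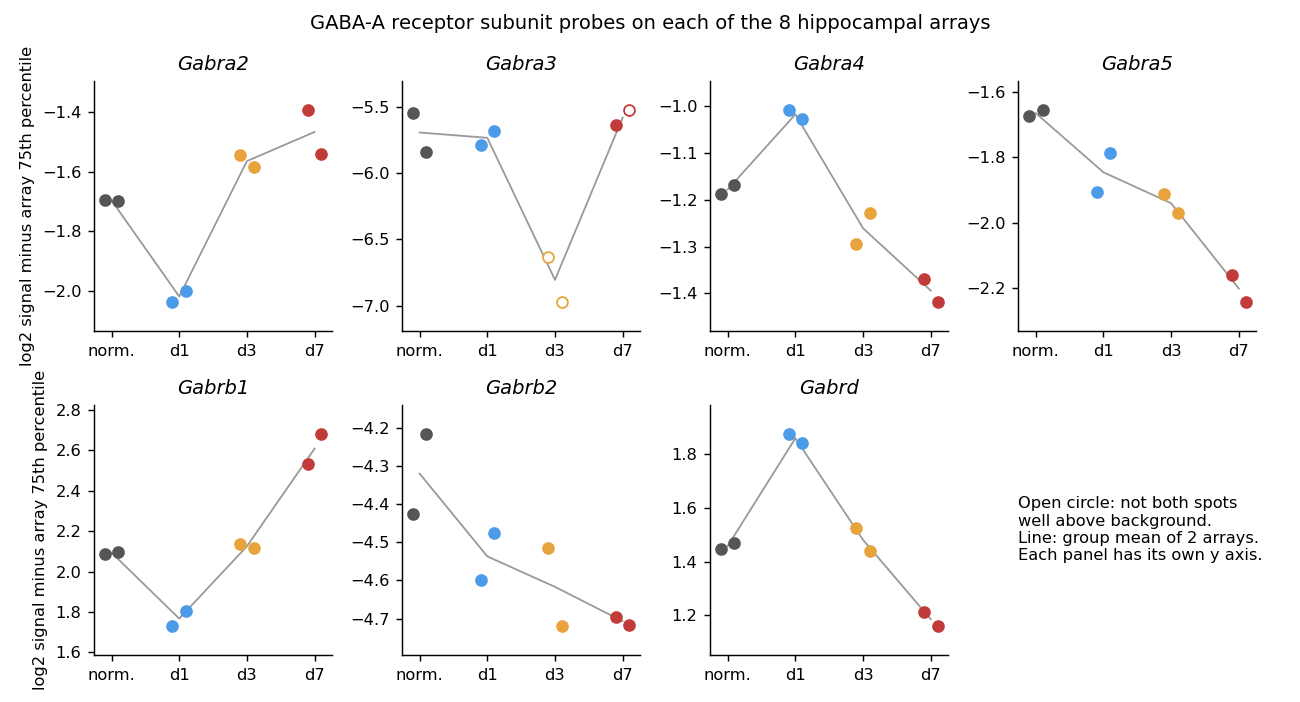
Level of each subunit probe (log2 signal minus the array's 75th percentile, own y axis per panel) on the 2 arrays of normoxia, day 1, day 3 and day 7; points are arrays, lines join group means, and open circles are arrays on which not both spots were well above background. Gabrd reaches 1.88 and 1.84 on day 1 and 1.21 and 1.16 on day 7, while Gabrb1 is at 1.73 and 1.80 on day 1 and 2.53 and 2.68 on day 7.

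Gabra5, which encodes the alpha 5 subunit of pyramidal cell receptors, was lower at each time. Its level was -1.67 and -1.65 for normoxia, -1.91 and -1.79 at day 1, -1.91 and -1.97 at day 3, and -2.16 and -2.24 at day 7. All 6 hypoxia arrays lay below both normoxia arrays, and day 7 below the rest. On day 1 the change was -0.18 ± 0.06 log2 (adjusted p = 0.0664), which did not pass the test. Gabra5 fell by 0.28 ± 0.06 log2 on day 3 (adjusted p = 0.0131) and by 0.54 ± 0.06 on day 7 (adjusted p = 8.46e-04), or 1.45-fold. The day 7 fall kept its direction and call under every scaling tried, at -0.35 after quantile normalization, -0.40 after cyclic loess and -0.24 with median centring. The day 3 fall was not called with median centring (-0.13) or normexp background correction (-0.15), nor without normoxia replicate 1 (-0.29), normoxia replicate 2 (-0.27) or day 3 replicate 2 (-0.25). Day 7 was below day 3 by 0.26 log2 (adjusted p = 0.0194). That call was lost after quantile normalization (-0.15), with median centring (-0.11), in a fit of only those groups, and without day 3 replicate 1 (-0.23), day 3 replicate 2 (-0.29) or day 7 replicate 2 (-0.22).

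Gabrb2 and Gabra3 gave dim probes whose spots disagreed. Gabrb2, which encodes the beta 2 subunit, measured -4.43 and -4.22 for normoxia, -4.60 and -4.48 at day 1, -4.51 and -4.72 at day 3, and -4.70 and -4.72 at day 7. Its changes were -0.22 on day 1 (adjusted p = 0.171), -0.30 on day 3 (adjusted p = 0.0638) and -0.39 ± 0.10 on day 7 (adjusted p = 0.0232). The median change of all probes in its decile of level was -0.12, -0.21 and -0.28 on those days. Only the day 7 change of Gabrb2 was called among these. That change was 0.10 after normexp correction and 0.03 after cyclic loess, and it was not called without normoxia replicate 2 (-0.28), day 7 replicate 1 (-0.40) or day 7 replicate 2 (-0.38). The 2 spots of Gabrb2 differed by a median of 0.61 log2 over the 8 arrays, more than any of these changes, against 0.02 for Gabrd. A joint F-test of the 3 contrasts with normoxia passed for the other 6 subunits, with adjusted p from 5.49e-04 to 0.00286, but not for Gabrb2 (0.0704), where 71.6% of all probes passed.

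Gabra3, which encodes the alpha 3 subunit, gave a signal near background. It was at -5.54 and -5.84 for normoxia, -5.79 and -5.68 at day 1, -6.64 and -6.98 at day 3, and -5.64 and -5.52 at day 7. Only the day 3 arrays stood apart. Gabra3 fell on day 3 by 1.11 ± 0.15 log2, or 2.16-fold (adjusted p = 0.00300), where the median change of its decile of level was -0.33. It was 1.22 log2 higher on day 7 than on day 3 (adjusted p = 0.00326). On day 3 neither spot was well above background on replicate 1 and only 1 of 2 was on replicate 2, and the 2 spots of this probe differed by up to 2.73 log2 on one array. The day 3 change was 0.16 after normexp correction and -0.43, not called, in the authors' deposited log2 values. The day 7 against day 3 change was 0.34 after normexp correction and 0.86, not called, in the authors' deposited log2 values.

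Counted together, 4 of the 7 subunits changed on day 1 (Gabrd and Gabra4 rose, Gabra2 and Gabrb1 fell), where 34.2% of all probes were called, 15.1% as rises and 19.2% as falls. On day 3 the count was 2 of 7, both falls (Gabra3 and Gabra5), against 49.9% of all probes (22.7% rises and 27.2% falls). On day 7 it was 6 of 7, with 2 rises (Gabra2 and Gabrb1) and 4 falls (Gabra4, Gabra5, Gabrb2 and Gabrd), against 61% of all probes (29.6% rises and 31.4% falls). Between consecutive times, 5 of 7 changed for day 3 against day 1, with 2 rises and 3 falls, where 51% of all probes were called, 26.7% as rises and 24.3% as falls. For day 7 against day 3 it was 4 of 7, with 2 rises and 2 falls, where 41.2% were called, 22.3% as rises and 18.9% as falls. With 7 probes these counts are not set apart from those shares. The median change of the 7 was -0.18, -0.08 and -0.22 log2 on days 1, 3 and 7, beside -0.06, -0.07 and -0.07 for all 24678 probes tested. Leaving aside Gabra3, whose day 3 level was near background, no subunit of the set changed by 2-fold in the 5 comparisons.

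**Figure D2:**
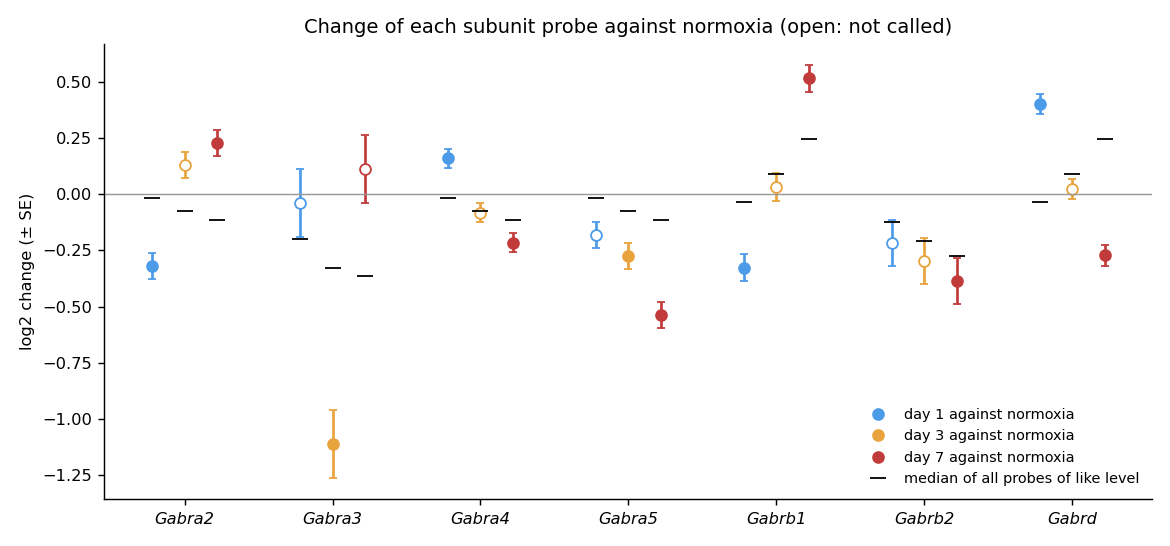
Change against normoxia (log2, ± SE) of each subunit probe on day 1, day 3 and day 7; filled points were called at an adjusted p under 0.05, and dashes give the median change of all probes in the same decile of mean level. Gabrd lies at 0.40 on day 1 and -0.27 on day 7, and Gabrb1 at -0.33 and 0.52.

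The ratio of 2 probes on the same array is untouched by any constant shift of that array. The log2 ratio of Gabrb1 to Gabrd was 0.64 and 0.63 for normoxia, -0.15 and -0.04 at day 1, 0.61 and 0.68 at day 3, and 1.32 and 1.52 at day 7. It was thus 0.73 lower on day 1 than in normoxia, 0.01 higher on day 3 and 0.79 higher on day 7, where the gap between arrays of a group was at most 0.20. Gabra4 over Gabrd moved less, by -0.24, -0.11 and 0.06, with a gap of at most 0.15. Gabra5 over Gabrd was lower than in normoxia at each time, by 0.58, 0.30 and 0.26. Gabra2 over Gabrb1 moved by 0.01, 0.10 and -0.29, with 1 gap of 0.30 between the day 7 arrays. These ratios were chosen after their values were seen, and they were not tested.

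**Figure D3:**
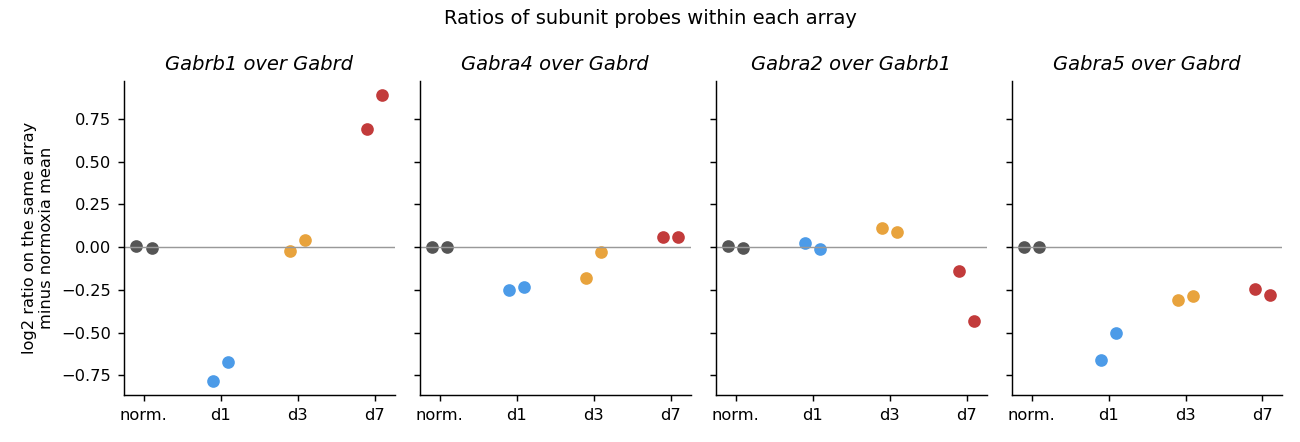
Log2 ratio of 2 subunit probes on the same array, minus the normoxia mean, with 1 point per array in normoxia, day 1, day 3 and day 7. Gabrb1 over Gabrd is below 0 on both day 1 arrays and above 0 on both day 7 arrays, whereas Gabra4 over Gabrd stays nearer to 0.

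As a description over the 8 arrays, which share their 4 groups and the scaling, Pearson's r was 0.94 between Gabra4 and Gabrd, 0.86 between Gabra2 and Gabrb1, -0.96 between Gabra4 and Gabrb1 and -0.96 between Gabrb1 and Gabrd. The search covered 7831 or 7832 named genes matched to RefSeq, by brightest probe, whose group means spanned at least 0.5 log2. Among these genes, those most like Gabrd were Jph4, Timp1 and Vim (r of 0.99 or above for each, 0.996 for Jph4). Those most like Gabrb1 were Banf1, Mrpl1 and Chordc1, with 0.997 for Banf1. Eml2, Chtf8 and Topors came closest to Gabra4 (0.995 for Eml2), Galk1, Gins4 and Grem1 to Gabra2 (0.990 for Galk1), and Ltbp4, Lrfn5 and Def8 to Gabra5 (0.992 for Ltbp4). Adra1b, Kcnk13 and Usp22 came closest to Gabra3 (0.979 for Adra1b), and Or6c35, Hsf2bp and F13a1 to Gabrb2 (0.971 for Or6c35).

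The stretch before the transcription start was read for the 6 subunits that RefSeq's promoter table holds on build GRCr8. The core letters of the hypoxia response element, bound by hypoxia-inducible factors, were searched as ACGTG and GCGTG on both strands in the 250 bases before the start, where 36.7% of 33469 promoters held at least 1 match. Gabra4 had 4 matches, all to GCGTG, and Gabrd had 1, to the same letters. Gabra3, Gabra5, Gabrb1 and Gabrb2 had none in this window. The sequences of Gabra4 and Gabrd, whose probes rose on day 1, and of Gabrb1, whose probe fell, are shown with matches in capitals. They run from chr14:36944497-36944746 (plus strand) for Gabra4, chr5:171252710-171252959 (minus strand) for Gabrd and chr14:36902894-36903143 (minus strand) for Gabrb1. A match to these letters is not a site of binding, and the windows differed in base composition. G and C made up 71.6% in Gabra4, 74.0% in Gabrd and 76.4% in Gabra5, which had no match. The share was 49.2% in Gabrb1, 40.4% in Gabra3 and 43.2% in Gabrb2, beside a median of 51.2% over all promoters.
Gabra4: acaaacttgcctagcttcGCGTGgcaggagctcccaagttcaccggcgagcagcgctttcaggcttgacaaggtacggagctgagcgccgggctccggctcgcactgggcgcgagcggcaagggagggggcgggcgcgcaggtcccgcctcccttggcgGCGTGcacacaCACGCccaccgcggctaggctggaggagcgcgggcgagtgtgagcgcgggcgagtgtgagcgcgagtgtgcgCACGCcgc
Gabrd: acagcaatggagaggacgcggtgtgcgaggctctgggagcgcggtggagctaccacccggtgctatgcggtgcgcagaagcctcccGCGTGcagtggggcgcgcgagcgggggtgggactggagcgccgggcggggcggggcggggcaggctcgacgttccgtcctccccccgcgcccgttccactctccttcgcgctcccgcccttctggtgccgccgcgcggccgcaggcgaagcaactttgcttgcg
Gabrb1: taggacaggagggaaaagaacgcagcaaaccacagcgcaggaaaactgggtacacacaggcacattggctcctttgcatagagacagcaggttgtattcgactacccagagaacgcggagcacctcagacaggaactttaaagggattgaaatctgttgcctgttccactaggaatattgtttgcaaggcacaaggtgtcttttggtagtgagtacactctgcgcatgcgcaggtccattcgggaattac

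Some other GABA-A subunit genes on the array were followed in the same fit, while Gabra6, Gabrg3, Gabrp, Gabrr1 and Gabrr2 did not pass the filter. Gabrg1, for the gamma 1 subunit, measured -1.39 and -1.40 on the normoxia arrays, -1.61 and -1.67 at day 1, -1.77 and -1.80 at day 3, and -1.49 and -1.50 at day 7. All 6 hypoxia arrays lay below both normoxia arrays. Gabrg1 fell by 0.25 on day 1 (adjusted p = 0.00814) and 0.39 on day 3 (adjusted p = 0.00117), with -0.10 on day 7 (adjusted p = 0.0774). It shares its stretch of chromosome 14 with Gabrb1, Gabra4 and Gabra2, none of which was called on day 3.

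Gabre (epsilon) was well above background on both normoxia arrays and on no array of days 3 and 7. It was at least 1.92-fold lower on day 3 and at least 1.86-fold lower on day 7. Its change on day 1 was -1.14 log2, with a single spot well above background on day 1 replicate 2. Gabre passed the filter only through its normoxia arrays, which favours a fall, so its calls are not independent evidence of one. The median change of probes in its decile of level was -0.40, -0.65 and -0.67 on days 1, 3 and 7. Gabrq (theta) measured 1.00 and 2.21 on the normoxia arrays and 0.47 and -0.39 on day 7, a change of -1.56 ± 0.46 (adjusted p = 0.0329) beside a spread within normoxia nearly as wide. Gabrr3 was not called in any comparison.

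**Figure D4:**
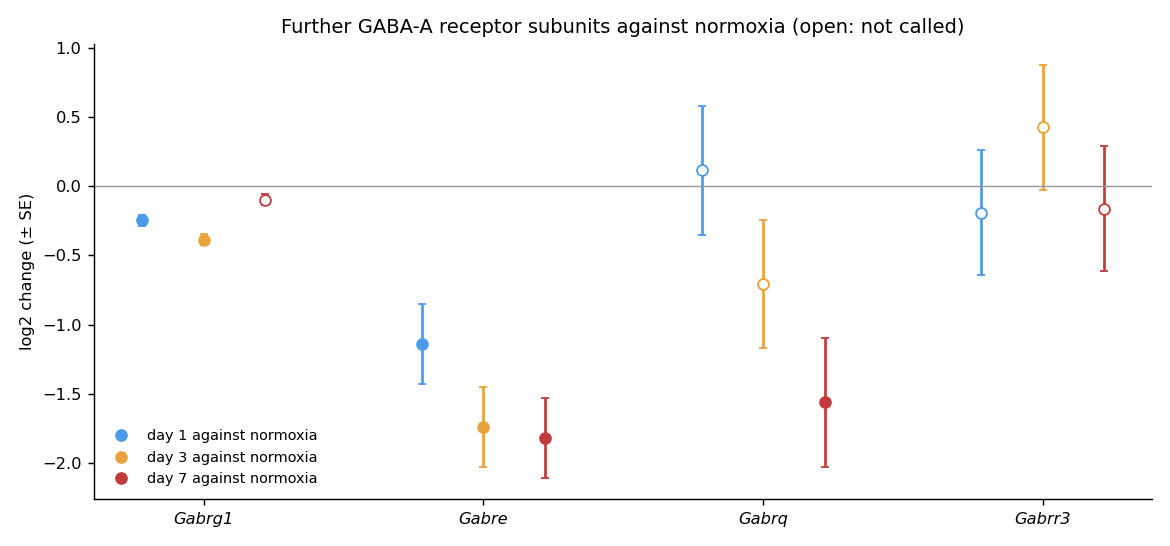
Change against normoxia (log2, ± SE) of the probes of Gabrg1, Gabre, Gabrq and Gabrr3 on day 1, day 3 and day 7; filled points were called at an adjusted p under 0.05. Gabrg1 lies at -0.25, -0.39 and -0.10, and the widest error bars are those of Gabrq and Gabrr3.

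Of 9 genes for GABA supply and clearance, 3 rose and 3 fell at day 1, none rose and 6 fell at day 3, and 1 rose and 7 fell at day 7. Falls made up 19.2%, 27.2% and 31.4% of all probes on those days, and rises 15.1%, 22.7% and 29.6%. Abat, the enzyme that breaks down GABA, fell by 0.72 ± 0.05 log2 on day 3 (adjusted p = 4.56e-04) and by 0.81 ± 0.05 on day 7 (adjusted p = 1.60e-04). Slc32a1, which loads GABA into vesicles, rose by 0.26 on day 1 (adjusted p = 0.0102) and fell by 0.57 on day 3 (adjusted p = 5.82e-04) and by 0.18 on day 7 (adjusted p = 0.0177). Gad2, one of the GABA-making enzymes, rose by 0.26 on day 1 (adjusted p = 0.0185) and fell by 0.30 on day 7 (adjusted p = 0.00605). Of 10 interneuron markers, 3 rose and 3 fell on day 1, 2 rose and 4 fell on day 3, and 4 rose and 4 fell on day 7. Their mean level was 1.30 and 1.27 on the day 3 arrays and lay between 1.41 and 1.58 on the other 6 arrays, normoxia included. The part of that difference in the values above was not tested.

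Of 15 genes for anchoring and trafficking of GABA-A receptors, 4 rose and 2 fell at day 1, 7 rose and 4 fell at day 3, and 8 rose and 4 fell at day 7, where 34.2%, 49.9% and 61% of all probes were called. Nsf, an ATPase of membrane fusion that also binds receptor subunits, fell by 0.91 ± 0.07 log2 on day 3 (adjusted p = 5.86e-04) and by 1.69 ± 0.07 on day 7 (adjusted p = 5.78e-05). Hap1, an adaptor for receptor recycling, fell by 1.09, 1.29 and 1.33 ± 0.06 log2 on days 1, 3 and 7 (adjusted p = 3.68e-04, 1.72e-04 and 6.73e-05). Shisa7, an auxiliary subunit of GABA-A receptors, rose by 0.28, 0.81 and 1.03 ± 0.05 log2 (adjusted p = 0.00971, 2.91e-04 and 7.14e-05). Trak2, a motor adaptor, rose by 0.31, 0.46 and 0.84 ± 0.04 log2 (adjusted p = 0.00537, 8.93e-04 and 8.85e-05). Another Shisa7 probe fell by 0.33 on day 1 (adjusted p = 0.00299) and rose by 0.18 on day 7 (adjusted p = 0.00881), and one more was not called, at -0.69 on day 7 (adjusted p = 0.0746). The bright probes of Shisa7 and Trak2 lie in the top decile of level, whose median rose by 0.36 on day 7.

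The GABA-B receptor and the chloride carriers completed the pathway. Gabbr2, one of the subunits of the GABA-B receptor, rose by 0.39 ± 0.04 log2 on day 3 (adjusted p = 0.00120) and by 0.49 ± 0.04 on day 7 (adjusted p = 2.98e-04). Gabbr1, its partner subunit, changed by 0.02 on day 1 (adjusted p = 0.793) and fell by 0.22 on day 7 (adjusted p = 0.0146). Slc12a5, the carrier KCC2 that exports chloride from neurons, rose by 0.15 on day 1 (adjusted p = 0.0331) and by 0.39 on day 7 (adjusted p = 5.05e-04). Slc12a2, the carrier NKCC1 that imports chloride, rose by 0.11 on day 3 (adjusted p = 0.0414) and by 0.47 on day 7 (adjusted p = 2.22e-04). These values are for each gene's brightest probe. On the normoxia arrays the mean level of those probes was 3.62 and 3.64 for the GABA-B receptor. It was 3.64 and 3.61 for the chloride carriers. The median change of the top decile of level was 0.18 on day 3 and 0.36 on day 7. The part of that rise in these values was not tested. Other probes of Gabbr1, Slc12a2 and Slc12a5 disagreed with the brightest ones. A second Slc12a2 probe fell by 0.20 on day 3 (adjusted p = 0.0171) and by 0.18 on day 7 (adjusted p = 0.0182). A second Slc12a5 probe was not called against normoxia, at -0.27 on day 7 (adjusted p = 0.0891). For day 3 against day 1 that Slc12a5 probe fell by 0.46 (adjusted p = 0.0215). For Gabbr1, another probe rose by 0.88, 0.53 and 0.83 on days 1, 3 and 7 (adjusted p = 1.30e-04, 3.59e-04 and 5.62e-05). One more was not called on any of these days, at -0.01 on day 7 (adjusted p = 0.975). The change of Gabbr1, the direction of Slc12a2 on days 3 and 7 and that of Slc12a5 on day 7 are therefore not settled by these arrays.

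**Figure D5:**
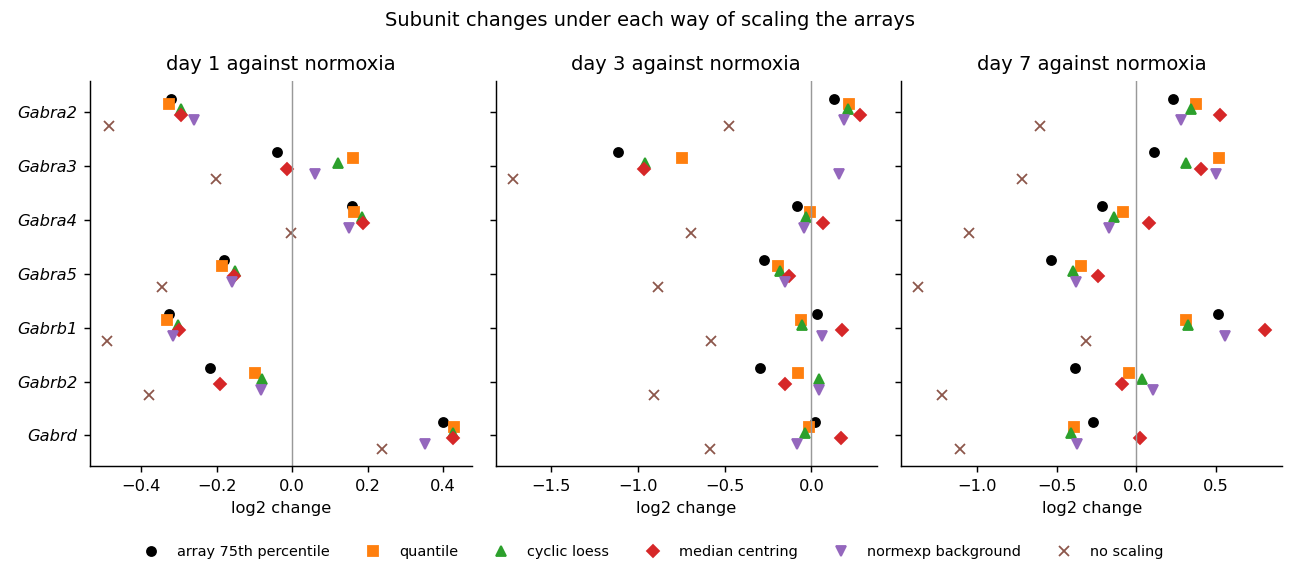
Change of each subunit probe against normoxia (log2, x axis) on day 1, day 3 and day 7 under 6 ways of treating the arrays, 1 symbol each. Gabra5 lies below 0 under all 6 at every time, Gabrd lies above 0 under all 6 on day 1, and on day 7 Gabrd lies below 0 except with median centring, where it is at 0.02.

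Across these ways of scaling, Gabrd was higher on day 1 by 0.24 to 0.43 log2 and was called except without scaling. Gabrb1 on day 7 ranged over 0.31 to 0.81 log2 among the scaled versions, all called, and was -0.32 without scaling, where the median of all probes was itself -0.90.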

How the data were processed

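RNA of 8 rat hippocampal samples, 2 per group by the labels, was measured on 1 slide. Per the file headers, the deposited scanner output holds a processed signal intensity per spot, made with Agilent Feature Extraction (version 11.5.1.1) by subtracting background, with no step that scales one array to another, plus mean and local background intensity. The deposited series table holds log2 values of unstated scaling; after a constant per array, 96.7% to 97.4% of them lay within 0.05 of the scaled log2 signals used here.

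Control spots and outlier spots were left out, spots of a probe were averaged on the log2 scale, and each array's 75th percentile was subtracted. A probe was well above background on an array where at least 0.5 of its spots were. Probes passing on both arrays of at least 1 group were kept (24678 of 30346 complete probes). Differences were tested in 1 limma model (limma 3.58.1, R 4.3.3, 4 residual degrees of freedom, two-sided), with Benjamini-Hochberg adjustment over all 24678 probes and calls at an adjusted p under 0.05. The method was tested on simulated data. There were 5 comparisons and an F-test. Arrays have no depth; their number limits the precision.

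The naming rule took every member probe, all other GABA-A subunits, GABA-B receptors and chloride carriers, up to 4 genes of the other lists by smallest F-test p, and 3 genes most correlated with each member; some genes that met it are not reported here. The members and lists were chosen with earlier results of these data known. Arrays with the same number were not treated as pairs, since their deviations correlated at -0.14 to 0.04. Marker lists covered neurons, principal cells, interneurons, striatum, thalamus, neocortex, choroid plexus and astrocytes; of 10 neocortical markers, 4 rose and 2 fell on day 1, 2 rose and 6 fell on day 3, and 3 rose and 5 fell on day 7, and of 8 astrocyte markers 1 rose and 3 fell, 4 rose and 3 fell, and 6 rose and 2 fell. Alternatives covered scaling, background, filter, probe choice, prior, samples, block and threshold. Tables and plots used data.table, pandas and matplotlib. Promoter sequences are from RefSeq (GRCr8), which held 6 of the 7 members.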

Additional observations from a re-analysis of the deposited data

Results flagged for a closer look

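The flagged values are changes between consecutive exposure times that passed the limma test of the difference itself, with 2 arrays per group and adjusted p over all probes. Between day 3 and day 1, Gabra2 was higher on day 3 by 0.45 log2 (adjusted p = 0.00233) and Gabrb1 by 0.36 (adjusted p = 0.00596), with both day 3 arrays above both day 1 arrays. Gabrd changed by -0.38 (adjusted p = 0.00198), Gabra4 by -0.24 (adjusted p = 0.00617) and Gabra3 by -1.07 (adjusted p = 0.00324), with both day 3 arrays below both day 1 arrays. Between day 7 and day 3, Gabrb1 was higher on day 7 by 0.48 (adjusted p = 0.00338) and Gabra3 by 1.22 (adjusted p = 0.00326), while Gabrd changed by -0.30 (adjusted p = 0.00635) and Gabra5 by -0.26 (adjusted p = 0.0194). The day 3 values of Gabra3 rest on 1 spot of 4 well above background. After quantile normalization or median centring the Gabra5 value was -0.15 or -0.11 and not called. Without scaling the Gabra2 value was 0.0064 and not called. Markers of cell types and of neighbouring tissue moved in the same comparisons. For day 3 against day 1, all 15 striatal markers fell and all 12 choroid plexus markers rose. Of 12 thalamic markers 1 rose and 10 fell, and of 13 hippocampal principal cell markers 9 rose and 2 fell. Of 10 interneuron markers, 1 rose and 4 fell, where 26.7% of all probes rose and 24.3% fell. For day 7 against day 3, all 12 choroid plexus markers fell. Principal cell markers had 2 rises and 9 falls, thalamic markers 6 rises and 2 falls, and interneuron markers 6 rises and 1 fall. Of all probes, 22.3% rose and 18.9% fell there. The part of these markers in the subunit values was not tested. Groups of 2 arrays are too small to look for single arrays that stand apart.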

How the results depend on the processing

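Over 35 subunit values and all alternatives, 669 recomputed values kept their side of the threshold without reversing a called change, 62 lost the call, 20 gained it and 14 reversed. Of the 669, 28 had the other sign, for 11 values that were not called either way. Without scaling, which moved the median of all probes by -0.23, -0.68 and -0.90 log2 on days 1, 3 and 7 against normoxia, Gabra2 was -0.48 on day 3 and -0.60 on day 7, Gabra3 -0.72 on day 7, Gabra4 -0.0025 on day 1, Gabrb1 -0.58 on day 3, -0.32 on day 7 and -0.088 for day 3 against day 1, and Gabrd -0.59 on day 3. With normexp correction (median 0.21 on day 7) Gabra3 was 0.16 on day 3 and 0.10 for day 3 against day 1, and Gabrb2 0.10 on day 7. With cyclic loess Gabrb2 was 0.034 on day 7; with median centring (median 0.23 on day 7) Gabra4 was 0.080 and Gabrd 0.023 on day 7. The cause of these reversals was not tested.

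Subunits called on day 1 (4) became 2 without scaling, 2 with normexp and 0 at 2-fold, and 1 to 4 leaving out 1 array. Those on day 3 (2) became 7 without scaling, 0 with normexp, 1 with the deposited values and 1 at 2-fold, and 1 to 3 leaving out 1 array. Those on day 7 (6) became 3 with median centring and 0 at 2-fold, and 4 to 6 leaving out 1 array. For day 3 against day 1 the 5 became 1 at 2-fold and stayed 5 leaving out 1 array. For day 7 against day 3 the 4 became 2 with only those groups in the fit and 1 at 2-fold, and 3 to 4 leaving out 1 array.

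Probes called numbered 8449 on day 1, 5127 without scaling, 875 at 2-fold and 4667 to 8669 leaving out 1 array. On day 3 they numbered 12311, 18622 without scaling, 1858 at 2-fold and 9375 to 12529 leaving out 1 array. On day 7 they numbered 15051, 3065 at 2-fold and 12679 to 15024 leaving out 1 array. For day 3 against day 1 they numbered 12589, 1775 at 2-fold and 9237 to 12798 leaving out 1 array. For day 7 against day 3 they numbered 10155, 5739 without scaling, 5629 with only those groups, 807 at 2-fold and 7588 to 9263 leaving out 1 array. Rises made up 48.5% of the day 7 calls, against 70.4% with median centring and 1.25% without scaling.

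With the replicate number as a block, which the labels and data do not support as a pairing, 3 subunits were called on day 1; the call lost was that of Gabra4 (0.16). Leaving out an array leaves a group of 1, assumed to vary like the others. Each gene rests on 1 probe. The Gabra3 probe lies near background, and the spots of the dim Gabrb2 probe disagreed, which limits what both can show.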
